A study of Mus musculus with 9 samples.

Results

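The receptor chains for interleukin-1, interleukin-18, interleukin-33, interleukin-12 and interleukin-23 were followed by name in murine Tc17 cells, that is, CD8+ T cells cultured to make IL-17. They are 9 genes of the 41388 in the table, Il1r1, Il1r2, Il1rap, Il1rl1, Il18r1, Il18rap, Il23r, Il12rb1 and Il12rb2. The family was chosen from these data with earlier results in view, among them the values of DMF, Ctrl and DMF + GSH libraries given here. The fold changes and p adj values of these comparisons therefore describe the chains and are no independent evidence for them. A mean normalized count of at least 10 over the 9 libraries was required for the test, and 8 of the 9 chains met it. Il1r2 did not.

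Naive CD62L+CD44-CD8+ T cells were sorted from lymph node and spleen of C57BL/6 mice. Every culture ran for 2 days on plate-bound anti-CD3 (5 µg/ml), with anti-CD28 (0.5 µg/ml), IL-2 (50 U/ml), TGF-β (0.5 ng/ml), IL-6 (30 ng/ml) and anti-IFN-γ (5 µg/ml), and each held 0.2% of the solvent DMSO. Ctrl received the solvent alone, DMF received 20 µM dimethyl fumarate, a thiol-reactive fumarate ester that lowers cellular glutathione, and DMF + GSH received 20 µM DMF with 50 µM glutathione. Each group had 3 libraries. No IL-1, IL-18, IL-12 or IL-23 was listed among the additions. Mice of the study were matched by age, which was 8 to 12 weeks, and by sex. Which sex was used and how many mice stood behind each culture were not stated in the labels or methods, and the p values measure the spread between these cultures.

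These receptors work as pairs. IL-1R1 binds IL-1 and signals once the accessory chain IL-1RAP joins it, IL-1R2 is a decoy without a signalling domain, ST2, the product of Il1rl1, takes IL-33 and uses the same accessory chain, and IL-18 binds IL-18R1 with IL-18RAP. Apart from the decoy, they pass their signal through MYD88, the IRAK kinases and TRAF6 to NF-κB. IL-12Rβ1 is shared: with IL-12Rβ2 it forms the receptor for IL-12, which acts through TYK2, JAK2 and STAT4 in interferon-γ-producing T cells, and with IL-23R it forms the receptor for IL-23, which acts mainly through STAT3 and sustains type 17 cells. IL-1R1 and IL-23R are known as receptors of IL-17-producing T cells, and ST2 as a receptor of regulatory T cells, mast cells, type 2 cells and some activated CD8+ T cells.

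With DMF, Il1r1 fell 6.53-fold and Il1rl1, 2 genes further along the same chromosome, rose 4.67-fold. Il23r was at 0.39 of its Ctrl mean and Il12rb1 at 1.56 times it, and neither passed the threshold with the preparation batch in the model. With the replicate number as a block instead, Il23r passed and Il12rb1 did not. Il1rap, Il18r1, Il18rap and Il12rb2 had means between 0.84 and 1.08 of those in Ctrl. In DMF + GSH, Il1r1 was 4.03-fold higher than with DMF alone and at 0.62 of its Ctrl mean.

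Of the 9 chains, 5 lie head to tail on the plus strand of chromosome 1 within 478 kb, with Il1rl2, the IL-36 receptor chain, as a sixth receptor gene between them (GRCm38, GENCODE vM21). From left to right these are Il1r2 (chr1:40074079-40125231), Il1r1 (chr1:40225080-40317257), Il1rl2 (chr1:40324610-40367562), Il1rl1 (chr1:40429570-40465415), Il18r1 (chr1:40465552-40500854) and Il18rap (chr1:40515362-40551705). The end of Il1rl1 and the start of Il18r1 are 136 bases apart. Il12rb2 (chr6:67291318-67376188) and Il23r (chr6:67422932-67491855) are neighbours on the minus strand of chromosome 6, 46743 bases apart. Il1rap is on chromosome 16 (chr16:26581704-26730117) and Il12rb1 on chromosome 8 (chr8:70808449-70821424), both on the plus strand.

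The sequences before the transcription starts are shown for the chains whose levels moved most, Il1r1, Il1rl1 and Il23r, and for Il12rb2, the neighbour of Il23r. Each is the 250 bases upstream of a RefSeq start (GRCm38.p6), read 5′ to 3′ on the strand of the gene. Il1r1 and Il1rl1 have 2 RefSeq starts each, and their second starts lie inside the gene. Capitals mark matches on either strand to 7 motifs: the FOXO core TGTTTAC, the STAT site TTCNNNGAA, the AP-1 site TGANTCA, the antioxidant response element TGACNNNGC, the ROR half-site AGGTCA, the GATA site AGATAA and the T-box half-site GGTGTGA. The AP-1 and antioxidant motifs share letters and can match the same bases.
Il1r1 start 1, chr1:40224830-40225079, plus strand: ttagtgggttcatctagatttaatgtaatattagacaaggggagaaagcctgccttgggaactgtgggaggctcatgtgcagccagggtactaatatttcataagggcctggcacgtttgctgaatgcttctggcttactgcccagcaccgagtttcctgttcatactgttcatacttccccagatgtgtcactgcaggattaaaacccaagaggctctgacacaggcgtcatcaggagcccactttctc
Il1r1 start 2, chr1:40266336-40266585, plus strand: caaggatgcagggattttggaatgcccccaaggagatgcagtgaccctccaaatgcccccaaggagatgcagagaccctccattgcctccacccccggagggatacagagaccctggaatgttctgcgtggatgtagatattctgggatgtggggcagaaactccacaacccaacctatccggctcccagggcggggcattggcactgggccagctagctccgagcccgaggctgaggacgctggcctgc
Il1rl1 start 1, chr1:40429320-40429569, plus strand: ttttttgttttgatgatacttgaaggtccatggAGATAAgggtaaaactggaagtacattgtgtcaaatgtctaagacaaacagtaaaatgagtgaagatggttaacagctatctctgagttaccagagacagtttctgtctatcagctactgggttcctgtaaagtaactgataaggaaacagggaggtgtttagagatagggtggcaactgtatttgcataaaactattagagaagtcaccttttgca
Il1rl1 start 2, chr1:40439379-40439628, plus strand: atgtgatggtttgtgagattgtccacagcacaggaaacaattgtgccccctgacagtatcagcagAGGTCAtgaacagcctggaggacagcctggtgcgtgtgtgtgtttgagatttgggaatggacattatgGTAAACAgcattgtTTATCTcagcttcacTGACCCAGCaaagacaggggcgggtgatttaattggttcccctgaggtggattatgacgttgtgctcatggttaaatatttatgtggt
Il23r start, chr6:67491856-67492105, minus strand: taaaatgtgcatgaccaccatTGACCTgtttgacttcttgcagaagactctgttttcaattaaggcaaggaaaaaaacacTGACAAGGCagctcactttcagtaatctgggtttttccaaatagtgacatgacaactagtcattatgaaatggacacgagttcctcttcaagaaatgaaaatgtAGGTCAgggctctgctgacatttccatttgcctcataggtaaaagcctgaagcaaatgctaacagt
Il12rb2 start, chr6:67376189-67376438, minus strand: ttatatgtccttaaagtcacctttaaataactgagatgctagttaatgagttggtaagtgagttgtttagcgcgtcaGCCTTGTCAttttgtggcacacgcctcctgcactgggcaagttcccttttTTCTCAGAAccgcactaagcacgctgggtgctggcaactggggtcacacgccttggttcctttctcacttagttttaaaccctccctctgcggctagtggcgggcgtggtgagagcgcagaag

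Neither Il1r1 window held these letters. The window of Il1rl1 start 1 had 1 GATA match, and that of start 2 had a ROR half-site, the FOXO core, a GATA site and an antioxidant response element, in that order towards the start. The Il23r window held a ROR half-site, an antioxidant response element and a further ROR half-site, and the Il12rb2 window an antioxidant response element and a STAT site. Short motifs are common. Of 32851 RefSeq windows of the same length, 3.17% held the FOXO core, 7.02% the STAT site, 6.75% the AP-1 site, 10.2% the antioxidant element, 14.0% the ROR half-site, 9.99% the GATA site and 3.33% the T-box half-site. The matches describe the letters and do not show binding.

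Levels of different chains were compared as normalized counts per kb of exon. In Ctrl the order was Il12rb1 at 235 ± 66.3, Il12rb2 at 173 ± 44.1, Il18r1 at 105 ± 29.9, Il1r1 at 102 ± 20.8, Il18rap at 42.5 ± 6.11, Il23r at 30.6 ± 11.3, Il1rap at 14.0 ± 3.29, Il1rl1 at 1.49 ± 0.78 and Il1r2 at 0.43 ± 0.39 per kb (mean ± SD, n = 3). Within 1 SD on each side, Il12rb1 could not be separated from Il12rb2, Il12rb2 from Il18r1, Il18r1 from Il1r1, Il18rap from Il23r or Il1rl1 from Il1r2. With DMF, Il1r1 had moved from the fourth to the fifth place, at 15.6 ± 6.80 per kb, and lay within 1 SD of Il1rap at 12.5 ± 0.45, which in turn lay within 1 SD of Il23r at 12.0 ± 7.93. Il23r at that level overlapped Il1rl1 at 6.97 ± 0.94. Il12rb1 then had the highest mean, at 365 ± 60.9 per kb, and was more than 1 SD on each side from Il12rb2. That separation counts all exon bases of Il12rb2, of which 40.0% lie under exons of the gene Serbp1 on the other strand. It was not checked on the other bases. In DMF + GSH the order of the 9 chains was the same as in Ctrl, with Il1r1 at 62.9 ± 20.7 and Il1rl1 at 3.03 ± 0.21 per kb.

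**Figure D1:**
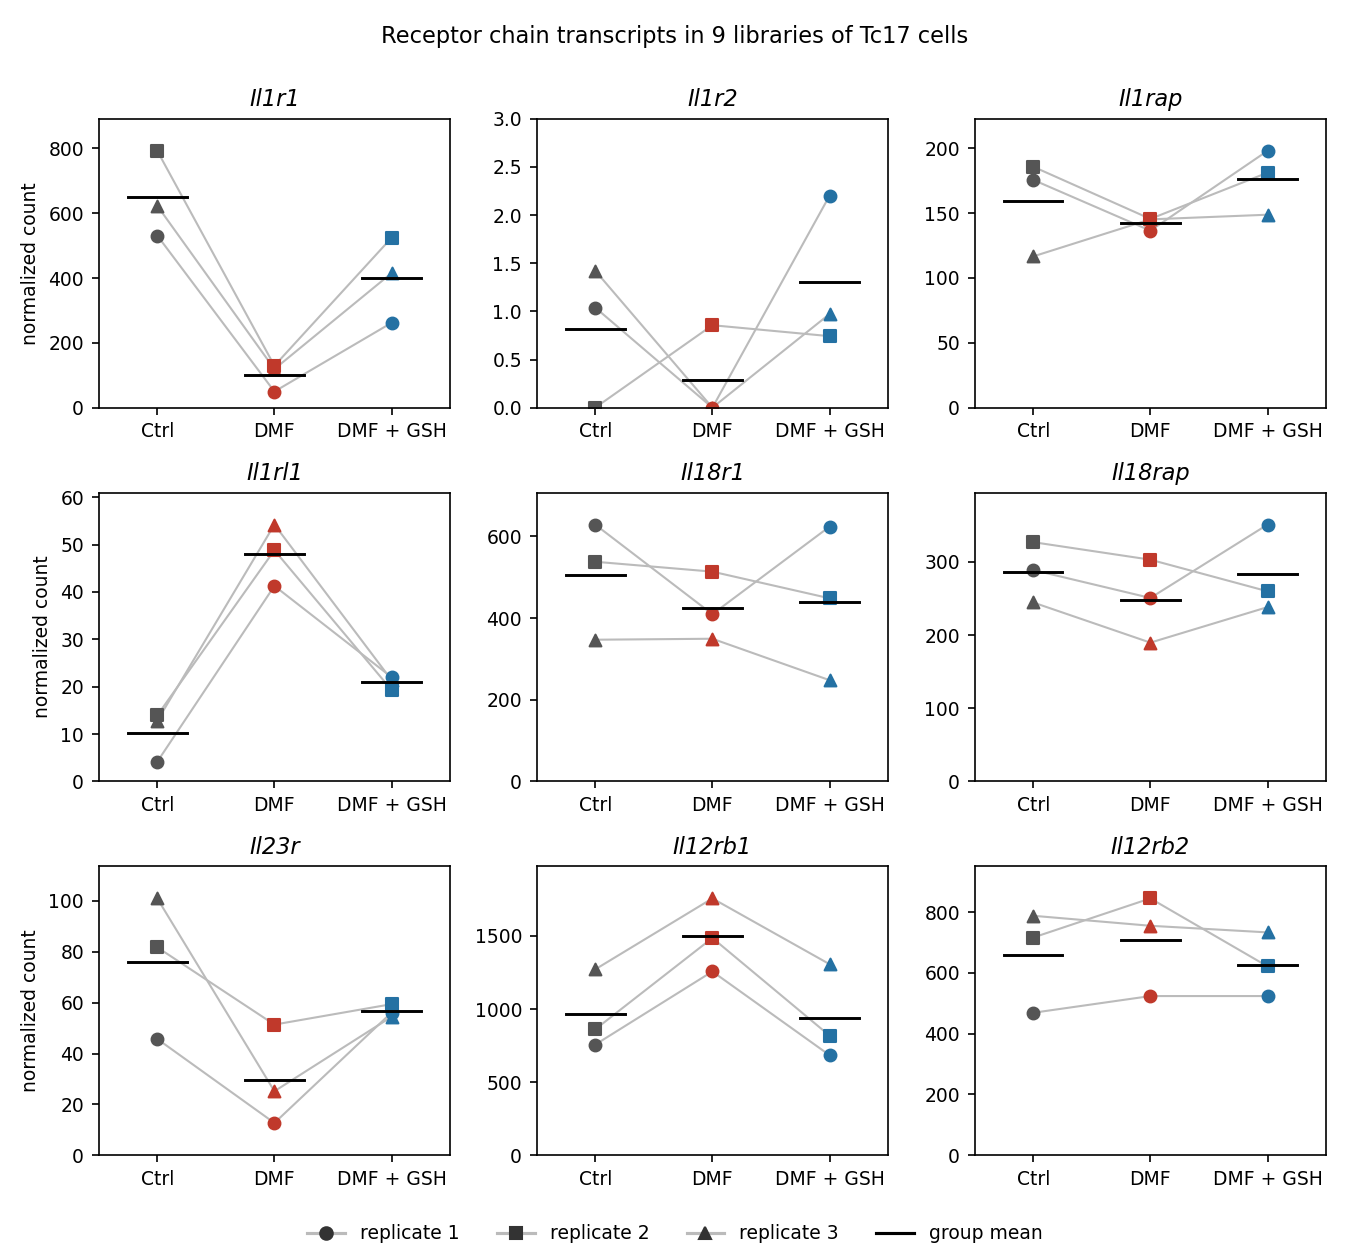
Normalized count of each receptor chain (linear axes from 0) in the 3 libraries of Ctrl, DMF and DMF + GSH. Points are libraries, grey lines join libraries with the same replicate number and black bars are group means. The 3 DMF libraries lie below all others for Il1r1 and above all others for Il1rl1.

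Il1r1 (ENSMUSG00000026072), the signalling receptor for IL-1α and IL-1β, had normalized counts of 531, 792 and 623 in Ctrl replicates 1, 2 and 3. It had 49.7, 129 and 119 in DMF, then 262, 524 and 415 in DMF + GSH. The 3 groups did not overlap, with DMF lowest, DMF + GSH between and Ctrl highest. The means were 649 ± 133, 99.3 ± 43.3 and 400.4 ± 132 (SD, n = 3). DMF against Ctrl gave a log2FC of −2.79 (SE 0.18, 95% interval −3.20 to −2.39) and a p adj of 0.00036 in limma with the preparation batch in the model, the smallest p of the 11599 genes tested. It was lower in 3 of 3 replicates, with a log2FC of −3.39 in batch 1, which holds replicate 1 alone, and of −2.49 in batch 2. In bulk RNA, fewer cells that carry a transcript and less of it per cell cannot be told apart.

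Il1rl1 (ENSMUSG00000026069), which encodes the IL-33 receptor ST2, was low in every group. Il1rl1 was counted per gene, so its transcripts cannot be told apart. Its normalized counts were 4.16, 13.9 and 12.8 in Ctrl, 41.3, 48.8 and 54.2 in DMF, then 22.0, 19.3 and 21.4 in DMF + GSH. All 3 DMF libraries were above all others, and the DMF + GSH libraries were above the Ctrl libraries. The values rest on 4 to 15 reads in Ctrl, 39 to 57 with DMF and 20 to 26 with DMF + GSH. The log2FC for DMF against Ctrl was 2.26 (SE 0.33, 95% interval 1.52 to 3.00, limma p adj = 0.00476), with 3.03 in batch 1 and 1.87 in batch 2, and 3 of 3 replicates were higher. The call was lost when Ctrl replicate 1, Ctrl replicate 2, DMF replicate 1 or DMF replicate 3 was left out (p adj 0.0343, 0.0153, 0.053 and 0.0294, with log2FC of 1.80, 2.46, 2.13 and 2.26), and with only the 6 libraries of the comparison (p adj 0.0115). With the replicate block it was kept whichever library was left out, at a p adj of at most 0.00033.

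Markers of other cells that carry ST2 were listed beside it. Foxp3, the regulator of regulatory T cells, ranged from 559 to 913 in Ctrl, from 1035 to 2456 with DMF and from 463 to 935 with DMF + GSH, so that it was high in the same libraries as Il1rl1. Its log2FC was 1.29 in limma (p adj = 0.0221), and it passed the threshold with the replicate number as a block (p adj = 1.06e-07). Cd4 was between 0 and 4.40 and Cd8a between 9317 and 13778 in all 9 libraries. The T cell markers went both ways with DMF. The log2FC was 0.31 for Cd8a and 0.06 for Cd8b1, but −0.34, −0.23 and −0.53 for Cd3d, Cd3e and Cd3g. None of these T cell markers passed the threshold, with the batch or with the replicate block. The same marker list held Il17a and Il17f, which were lower with DMF and passed in both fits. Their log2FC was −2.15 and −1.39 (limma p adj 0.00305 and 0.00169 with the batch). The 5 mast cell and basophil markers summed to between 1.04 and 43.7 in Ctrl, to between 0 and 6.85 with DMF and to between 9.72 and 53.9 with DMF + GSH, with Cpa3 the highest of them by mean and at most 28.6. The 4 markers of group 2 innate lymphoid cells summed to at most 4.23, with Il17rb, the highest, at no more than 3.30 and Klrg1 at 0 throughout. The part of these cells in the Il1rl1 values was not tested.

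Of the 8 chains tested, 2 passed the threshold (p adj under 0.01 and an absolute log2FC of at least 0.75) in DMF against Ctrl, beside 335 of the 11599 genes, 2.89%. The count is read together with the choice of the family, which was made on this contrast. With the replicate number as a block, 3 of the 8 passed, the third being Il23r, beside 6.8% of all genes. The median log2FC of the 8 chains was −0.18, and that of all genes tested was 0.01.

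**Figure D2:**
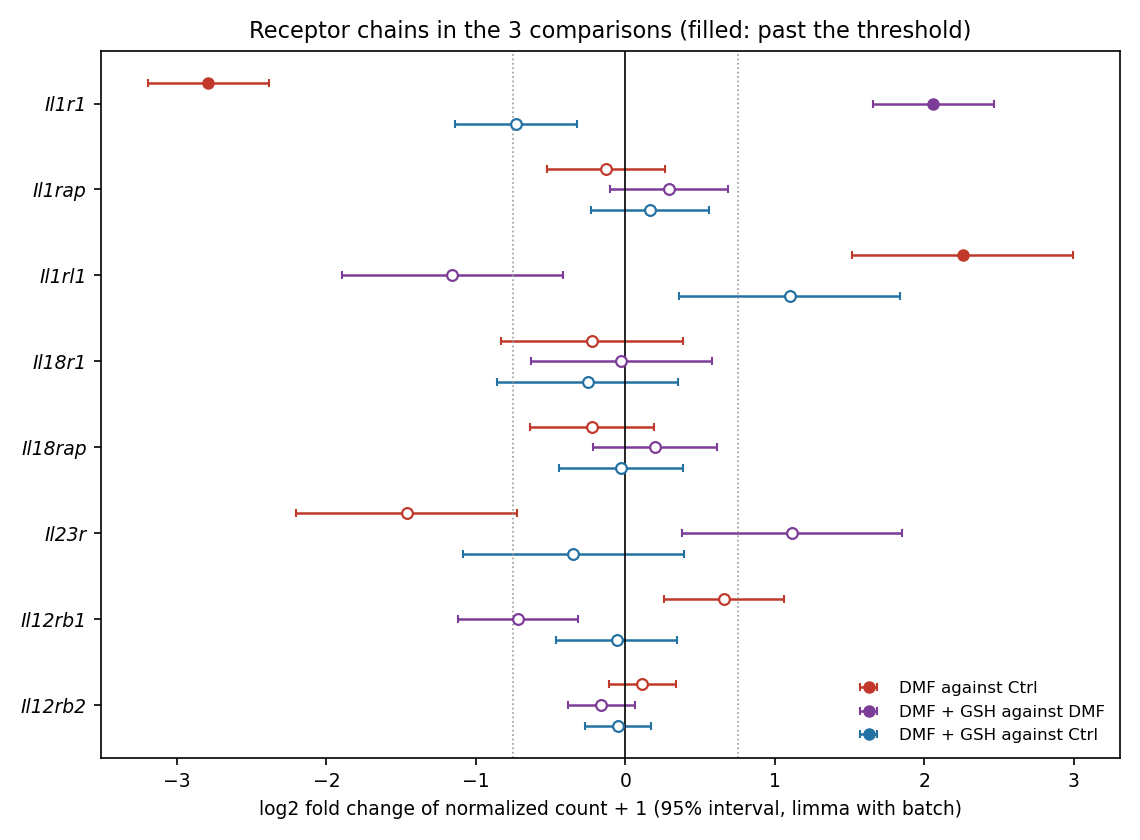
log2 fold change of normalized count + 1 with its 95% interval for the 8 chains tested, in DMF against Ctrl (red), DMF + GSH against DMF (purple) and DMF + GSH against Ctrl (blue), from limma with the preparation batch. Filled points passed the threshold and dotted lines mark a log2FC of −0.75 and 0.75. Il1r1 lies at −2.79, 2.06 and −0.73, and Il1rl1 at 2.26, −1.16 and 1.10.

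Il1r2 (ENSMUSG00000026073), the IL-1 decoy receptor, was not detectable as changed. It had 0 or 1 read in each Ctrl library, 0 or 1 with DMF and 1 or 2 with DMF + GSH, all under 3 reads. Il1rap (ENSMUSG00000022514), the accessory chain of IL-1R1 and ST2, had normalized counts of 176, 186 and 117 in Ctrl, 136, 146 and 145 in DMF, then 198, 181 and 149 in DMF + GSH. The Ctrl libraries span the DMF libraries. Its log2FC for DMF against Ctrl was −0.13 (95% interval −0.53 to 0.26, p adj = 0.598).

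Levels per kb of 2 chains were set against each other within each library, as a ligand-binding chain over its partner or as 2 ligand-binding chains of different receptors. Il1r1 over Il1rap was 5.40, 7.61 and 9.54 in Ctrl, 0.65, 1.59 and 1.46 in DMF, then 2.36, 5.17 and 4.98 in DMF + GSH. The 3 groups again kept apart. Il1rl1 over Il1rap was 0.11 ± 0.07 in Ctrl, 0.56 ± 0.06 with DMF and 0.20 ± 0.03 with DMF + GSH (SD, n = 3). Set against each other, Il1r1 was 84.3 ± 47.1 times Il1rl1 in Ctrl, 2.19 ± 0.80 times with DMF and 21.1 ± 8.26 times with DMF + GSH. Per kb of all annotated exon bases, Il1r1 thus stayed above Il1rl1 in all 9 libraries. The lowest ratio, 1.31 in DMF replicate 1, rests on 47 reads of Il1r1 and 39 of Il1rl1. It depends on the exon lengths taken, and which transcripts of each gene were present was not tested.

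**Figure D3:**
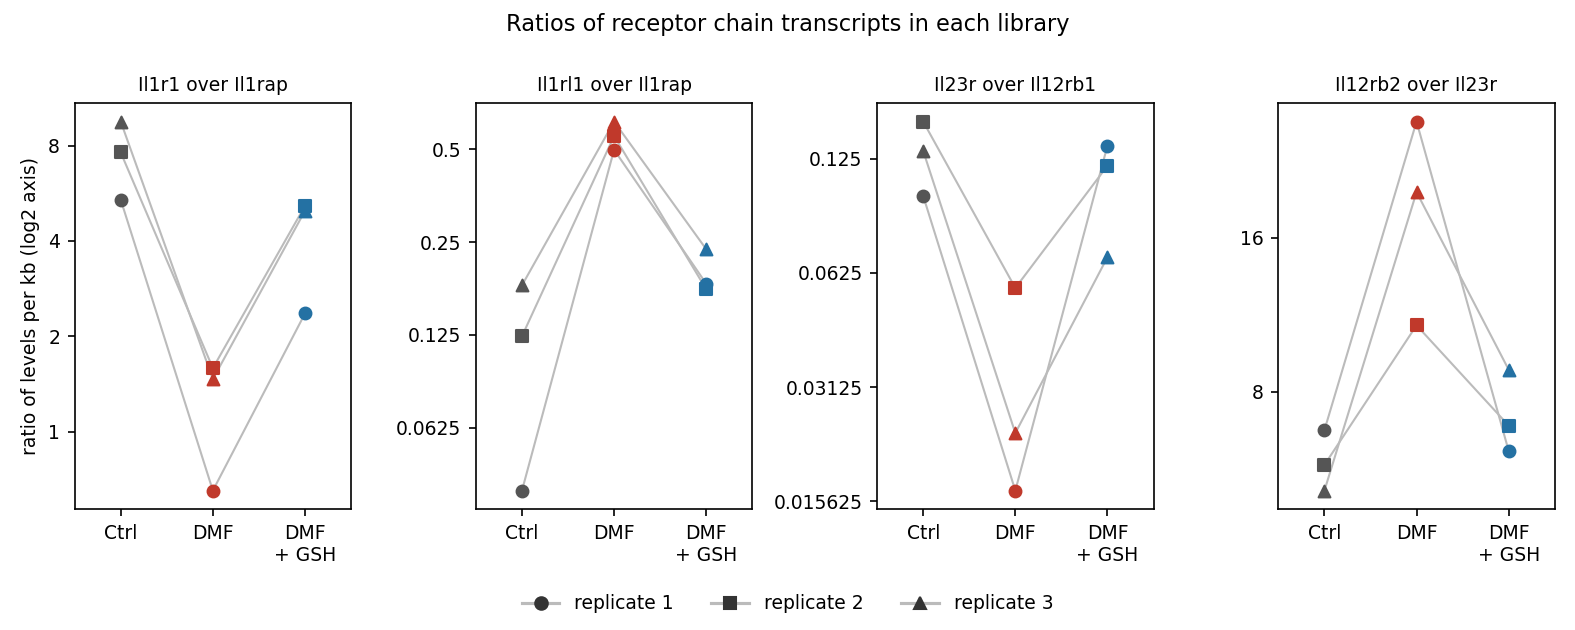
Ratios of chain levels per kb of exon in each library, on log2 axes, for Il1r1 over Il1rap, Il1rl1 over Il1rap, Il23r over Il12rb1 and Il12rb2 over Il23r. Points are libraries and grey lines join equal replicate numbers. In all 4 panels the DMF libraries lie outside the range of the Ctrl libraries, below it for Il1r1 over Il1rap and Il23r over Il12rb1 and above it for the other ratios.

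The IL-18 receptor chains, next in line on chromosome 1, had overlapping groups. Il18r1 (ENSMUSG00000026070) had 629, 538 and 347 in Ctrl, 409, 514 and 349 in DMF, then 624, 448 and 248 in DMF + GSH. Il18rap (ENSMUSG00000026068) had 289, 327 and 245 in Ctrl, 251, 303 and 189.7 in DMF, then 351, 259.8 and 238 in DMF + GSH. For both, replicate 3 was the lowest library of each group. The log2FC for DMF against Ctrl was −0.22 for Il18r1 (95% interval −0.83 to 0.38, p adj = 0.559) and −0.23 for Il18rap (95% interval −0.64 to 0.19, p adj = 0.384). Il18r1 over Il18rap per kb was 2.45 ± 0.55, 2.42 ± 0.15 and 2.12 ± 0.58 in the 3 groups.

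**Figure D4:**
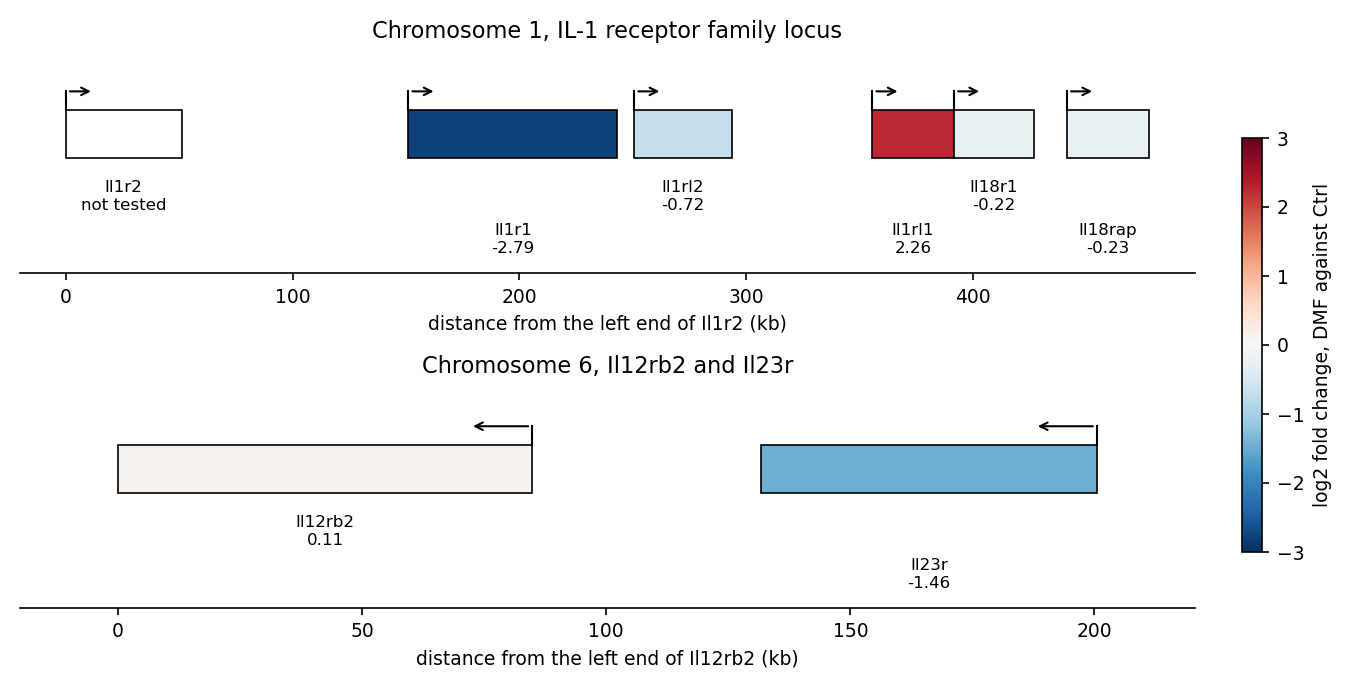
The receptor genes on chromosome 1 and chromosome 6, drawn to scale in kb from the left end of Il1r2 and of Il12rb2. Boxes are gene spans, arrows mark the annotated start and direction, and the fill and the printed value give the log2FC in DMF against Ctrl. Il1r1 at −2.79 and Il1rl1 at 2.26 flank Il1rl2 at −0.72, and Il18r1, which begins 136 bases after Il1rl1 ends, is at −0.22.

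Il1rl2 was no member of the list and is given because it lies between Il1r1 and Il1rl1. It had 31.2, 34.4 and 31.3 in Ctrl, 26.4, 15.4 and 17.4 in DMF, then 15.4, 30.4 and 21.4 in DMF + GSH. Its DMF libraries were all below Ctrl, with a log2FC of −0.72 (p adj = 0.107). Of the 6 receptor genes along 478 kb, Il1r2 was not tested, Il1r1 fell, Il1rl2 did not pass, Il1rl1 rose, and Il18r1 and Il18rap had intervals that include 0.

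Il23r (ENSMUSG00000049093), the IL-23-specific chain, had normalized counts of 45.7, 81.7 and 101 in Ctrl, 12.7, 51.4 and 25.2 in DMF, then 56.1, 59.4 and 54.5 in DMF + GSH. Each DMF library was below the Ctrl library of its replicate number, but DMF replicate 2 was above Ctrl replicate 1, so the groups overlapped. The log2FC for DMF against Ctrl was −1.46 (SE 0.33, 95% interval −2.20 to −0.73), with −1.77 in batch 1 and −1.31 in batch 2. The p adj of 0.0128 missed the threshold in limma with the batch, and with the replicate block it was 0.000261. Il23r also passed with no minimum (p adj = 0.00815), in DESeq2 (log2FC −1.37, p adj = 0.0019) and in edgeR with the block (p adj = 0.000591), but not in edgeR with the batch (p adj = 0.0185). Without DMF replicate 2 it passed in the fit with the batch as well (log2FC −1.85, p adj = 0.0031). The DMF values rest on 12 to 60 reads.

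Il12rb1 (ENSMUSG00000000791), the chain that IL-12 and IL-23 receptors share, had the highest mean per kb of the family in every group. It lay within 1 SD of Il12rb2 in Ctrl and in DMF + GSH. This rank counts all exon bases of Il12rb2, of which 40.0% lie under exons of Serbp1, and was not checked on the other bases. Il12rb1 had normalized counts of 757, 861 and 1271 in Ctrl, 1257, 1486 and 1757 in DMF, then 684, 818 and 1307 in DMF + GSH. All 3 replicates were higher with DMF, while the lowest DMF library lay just below the highest Ctrl library. The log2FC was 0.66 (SE 0.18, 95% interval 0.26 to 1.06, p adj = 0.0241), with 0.73 in batch 1 and 0.63 in batch 2. With the replicate block the p adj was 1.35e-06, and the fold change stayed below the limit of 0.75. With the block and without DMF replicate 3 it passed (log2FC 0.78, p adj = 9.53e-07).

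Il12rb2 (ENSMUSG00000018341), the IL-12-specific chain, had 469, 716 and 788 in Ctrl, 524, 845 and 755 in DMF, then 524, 621 and 733 in DMF + GSH. The groups overlapped almost completely, and the log2FC for DMF against Ctrl was 0.11 (95% interval −0.11 to 0.33, p adj = 0.424). Of its exon bases, 1519 (40.0%) lie under exons of Serbp1 on the other strand, a gene with means of 12361 to 16844 normalized counts. The library kit does not mark strand and the labels and methods do not say how overlapping features were counted, so reads of the shared bases cannot be told apart. Serbp1 itself had a log2FC of 0.45 with DMF (p adj = 0.0285).

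Between the neighbours on chromosome 6, the ratio per kb moved. Il12rb2 over Il23r was 6.72, 5.75 and 5.12 in Ctrl, 27.1, 10.8 and 19.7 in DMF, then 6.12, 6.86 and 8.83 in DMF + GSH. All 3 DMF libraries were above the other 6. Il23r over Il12rb1 was 0.13 ± 0.03 in Ctrl, 0.03 ± 0.02 with DMF and 0.11 ± 0.03 with DMF + GSH, and Il12rb2 over Il12rb1 was 0.75 ± 0.13, 0.51 ± 0.09 and 0.75 ± 0.13 (SD, n = 3). These ratios were not tested.

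DMF + GSH against DMF asked which chains differ when glutathione is supplied with the drug. This comparison shares the DMF libraries with DMF against Ctrl, so a high or low DMF library enters both with opposite sign. Il1r1 alone of the 8 chains passed the threshold, with a log2FC of 2.06 (SE 0.18, 95% interval 1.65 to 2.46, limma p adj = 0.00315), beside 63 of 11599 genes, 0.543%. It was higher in 3 of 3 replicates, with 2.37 in batch 1 and 1.90 in batch 2. The call was lost without DMF replicate 3, DMF + GSH replicate 1 or DMF + GSH replicate 2 (p adj 0.0249, 0.045 and 0.0142, with log2FC of 2.11, 2.05 and 1.97), and without the batch term (p adj 0.012). With the replicate block it was kept whichever library was left out, at a p adj of at most 2.26e-07.

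Il1rl1 did not pass in this comparison without the block and had a log2FC of −1.16 (p adj = 0.0345), with −0.88 in batch 1 and −1.30 in batch 2. Il23r had 1.12 (p adj = 0.0381), with 2.06 and 0.64, and Il12rb1 had −0.72 (p adj = 0.0224), with −0.88 and −0.64. With the replicate block Il1rl1 (p adj = 0.00699) and Il23r (p adj = 0.00306) passed as well, which made 3 chains beside 5.69% of all genes. In edgeR with the block Il1rl1 passed (p adj = 0.000929) and Il23r did not (log2FC 0.93, p adj = 0.0116). With the block in limma, Il1rl1 was lost without any one of the DMF libraries or DMF + GSH replicate 2 or 3 (p adj 0.0162 to 0.0533), and Il23r without DMF replicate 1, DMF replicate 3 or DMF + GSH replicate 1 (p adj 0.0274 to 0.055). Il12rb1 had a block p adj of 6.46e-07 and missed the fold limit. It passed without DMF + GSH replicate 3 (log2FC −0.93, p adj = 0.00556, and −0.82, p adj = 1.33e-06 with the block) and, with the block, without DMF replicate 3 (log2FC −0.84, p adj = 7.6e-07). In the remaining 4 chains the log2FC lay between −0.16 and 0.29, and each 95% interval included 0. Il1rap among them was higher in 3 of 3 replicates, its groups did not overlap, and with the replicate block its interval ran from 0.0095 to 0.58 (p adj = 0.0912).

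In DMF + GSH against Ctrl none of the 8 chains and 0 of the 11599 genes passed, 0%. At an unadjusted p under 0.05 there were 2 chains, Il1r1 and Il1rl1, beside 222 genes, 1.91%. edgeR and DESeq2 on the recovered reads also gave 0 genes, with 213 and 100 at an unadjusted p under 0.05. Il1r1 was lower than in Ctrl in 3 of 3 replicates, with a log2FC of −0.73 (95% interval −1.14 to −0.33), and Il1rl1 was higher in 3 of 3, with 1.10 (95% interval 0.36 to 1.84), the limma p adj of both rounding to 1. With the replicate block the p adj for Il1r1 was 0.0617 in limma and 0.0039 in edgeR, where the log2FC of −0.72 missed the fold limit, and that for Il1rl1 was 0.463 and 0.679. For both, neither group's range reached into the other's. The batches gave −1.02 and −0.59 for Il1r1 and 2.16 and 0.57 for Il1rl1. For the other 6 chains the 95% intervals included 0, the widest being that of Il23r from −1.08 to 0.39.

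Genes whose levels ran most like each chain over the 9 libraries were listed by Pearson's r of log2(normalized count + 1). The libraries share groups, batch and depth, so the r values are descriptions. Nearest to Il1r1 were Tnfrsf25, a TNF receptor superfamily member (r = 0.991), the integrin subunit gene Itga3 (0.986) and Hadha of mitochondrial fatty acid oxidation (0.984). Among those nearest to Il1rl1 were Capsl (0.980) and Abi2 (0.966). Il23r was followed by Zfp160, Rufy1 and Fads2 (0.971 to 0.962), Il12rb1 by Cdca7, Mrps27 and Dmwd (0.991 to 0.989) and Il12rb2 by Il2rb, AC168977.1 and Zfp574 (0.954 to 0.945). For Il1rap these were Pfkfb2, Trbj2-7 and Gm14029 (0.973 to 0.953), for Il18r1 Stx8, Tmem185b and Alpk1 (0.949 to 0.930) and for Il18rap Gm12216, 2700097O09Rik and Zfx (0.962 to 0.937).

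The ligands of these receptors were barely present. Of 9 genes for ligands and soluble inhibitors, Il18bp, which binds and blocks IL-18, was the only gene tested, at 46.1 ± 4.24 in Ctrl and 35.7 ± 2.17 with DMF (log2FC −0.36, p adj = 0.159). Il1b, Il18, Il33, Il12a, Il12b and Il23a stayed under 6 normalized counts in all libraries. Il1a, an IL-1 receptor ligand, ranged from 0 to 4.16 in Ctrl, from 12.8 to 19.0 with DMF and from 0.74 to 2.20 with DMF + GSH. All 3 DMF libraries were above the others, and Il1a missed the level required for the test. Il18 ranged from 2.84 to 4.16 in Ctrl, was at 0 in all 3 DMF libraries and ranged from 1.94 to 2.23 with DMF + GSH, where 3 reads correspond to 2.23 to 4.27 normalized counts. Il1rn, the soluble IL-1 receptor antagonist, ranged from 1.10 to 18.4.

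Behind the receptors, 31 of 40 genes for ligands, adaptors, kinases, STATs and inhibitors were tested, and 0 passed the threshold in limma for DMF against Ctrl, beside 2.89% of all genes. Of the 31, 15 had an unadjusted p under 0.05, beside 41.5% of all genes, edgeR also called 0, and DESeq2 called 1, Irak2. With the replicate block 3 passed, each lower with DMF, beside 6.8% of all genes. These were Irak2, Socs3 and Stat4. Without Ctrl replicate 3 the count in the fit with the batch was 2, Irak2 and Tnfaip3. Over all genes that fit called 680, against 335 with all libraries.

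In the IL-1 receptor pathway, Irak2, a kinase recruited after MYD88, was at 153 ± 37.8 in Ctrl, 79.3 ± 17.5 with DMF and 147 ± 35.1 with DMF + GSH (log2FC −0.93, limma p adj = 0.018, block p adj = 8.68e-06). Tnfaip3, the NF-κB inhibitor A20, had a log2FC of −0.69 (p adj = 0.00918), and Sigirr, an inhibitory receptor of the family, had −0.48 (p adj = 0.042). Of the 20 genes tested in this list, 14 had a log2FC below 0 and 6 above, with a median of −0.04. The adaptor gene Myd88 had a log2FC of 0.18, and the kinase genes Irak4 and Irak1, which act after it, had −0.20 and −0.02.

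In the IL-12 and IL-23 pathway, Socs3, a STAT3-induced inhibitor, was at 1109 ± 326 in Ctrl and 555 ± 121 with DMF (log2FC −0.98, limma p adj = 0.0228, block p adj = 1.5e-08). Stat4, the STAT of the IL-12 receptor, was at 479 ± 159 in Ctrl and 251 ± 72.3 with DMF (log2FC −0.91, limma p adj = 0.0532, block p adj = 9.32e-08). Cish, a cytokine-induced inhibitor of STAT signalling, was at 1302 ± 94.4 in Ctrl and 1865 ± 432 with DMF (log2FC 0.49, limma p adj = 0.0479, block p adj = 0.000356). Socs1, another inhibitor, had a log2FC of 0.45 (p adj = 0.203). Jak2, the kinase bound to the ligand-specific chains, had a log2FC of −0.47 (p adj = 0.00911), and Stat3 had −0.06. Of the 10 genes 6 had a log2FC below 0 and 4 above. Among other receptor chains of the IL-12 and IL-6 type, 4 were tested and 0 passed, beside 2.89% of all genes, the nearest being Il6ra, the IL-6 receptor, with a log2FC of −0.73 and a p adj of 0.00775.

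**Figure D5:**
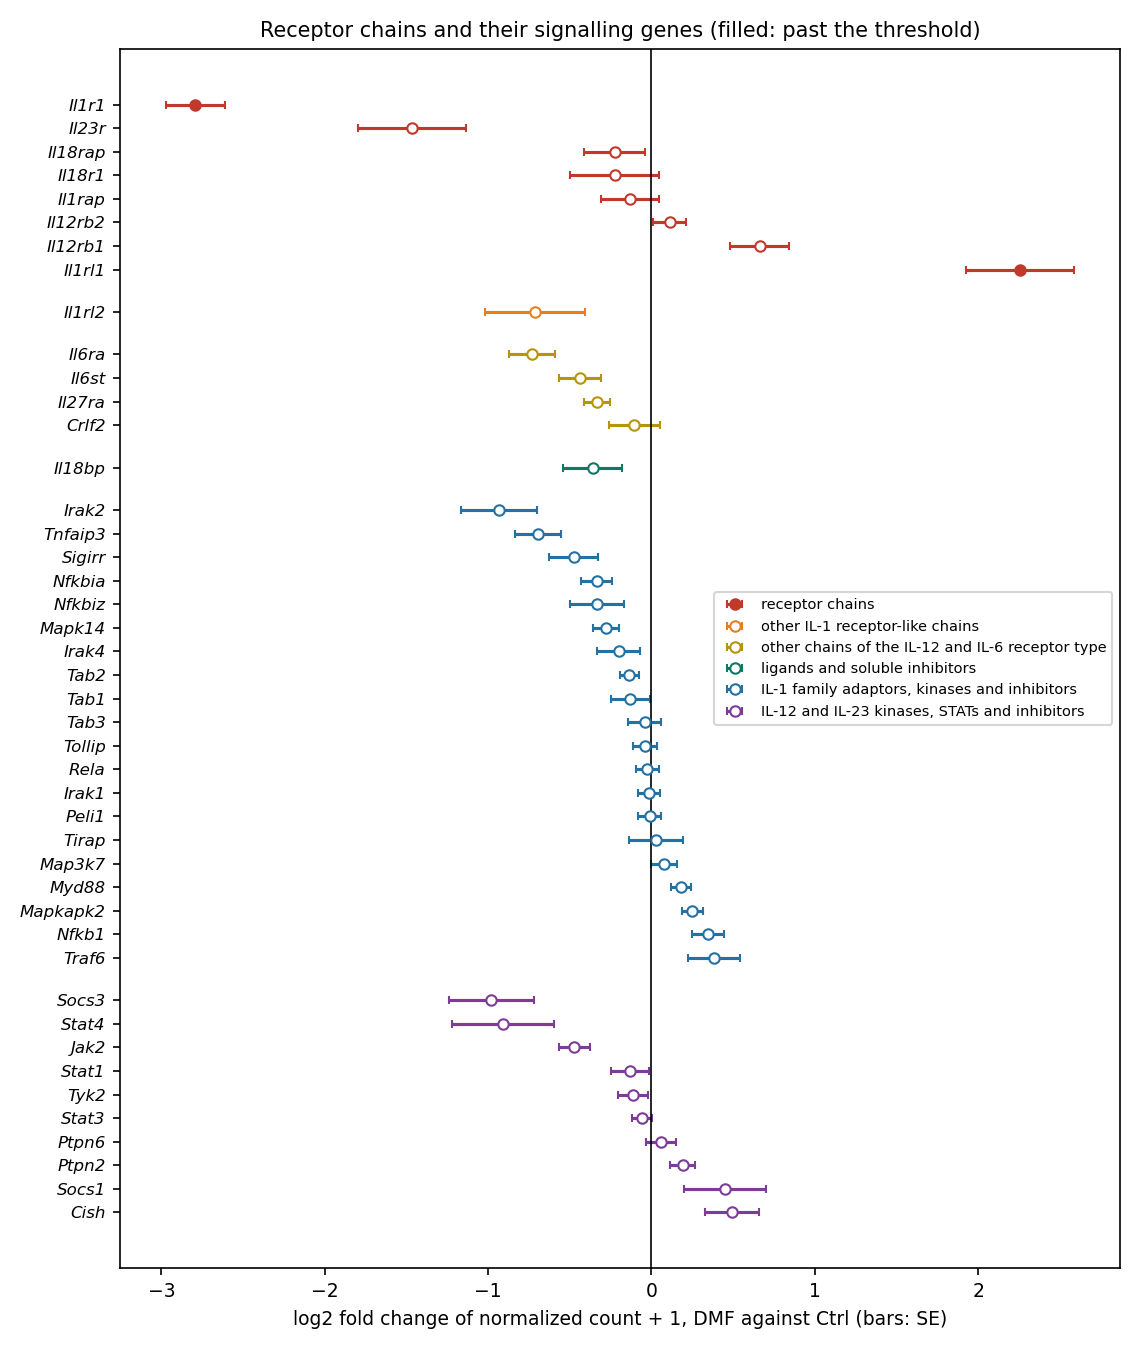
log2 fold change of normalized count + 1 in DMF against Ctrl with its SE, for the receptor chains, related chains, ligands and inhibitors, and the signalling genes of both pathways with a mean of at least 10. Filled points are past the threshold. Il1r1 at −2.79 and Il1rl1 at 2.26 lie outside the range of the signalling genes, which runs from Socs3 at −0.98 to Cish at 0.49.

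Facts of the whole series bear on these values as follows. The depth was 7671772 to 11589246 reads in Ctrl, 10382638 to 12669991 with DMF and 9753478 to 14511926 with DMF + GSH, and 3 reads correspond to 2.23 to 4.27 normalized counts. Il17a, the cytokine that names the cells, ranged from 269 to 504 in Ctrl, from 31.7 to 146 with DMF and from 276 to 429 with DMF + GSH. Ctrl replicate 3, the shallowest library, held 119 normalized counts of the macrophage gene Lyz2 and 58.3 of Csf1r, and its 6 myeloid markers in the table summed to 264, while the other 8 libraries summed to at most 88.3. Cd68, the myeloid marker with the highest mean, ranged from 44.5 to 82.5 over the 9 libraries. S100a8 and S100a9 were at 0 in all libraries. Without Ctrl replicate 3, Il1r1 had a log2FC of −2.97, Il1rl1 of 2.39, Il23r of −1.35 and Il12rb1 of 0.81, and the same chains passed. Among the other markers fixed, Cd79b of B cells ranged from 56.1 to 87.3, Sox13 of γδ T cells from 2.97 to 13.8, and the NK receptor gene Klrk1, which CD8+ T cells also express, rose with DMF (log2FC 0.94, p adj = 0.00737). The other NK markers, Ncr1 and Klrb1c, reached at most 2.08 and 2.84 normalized counts and were at 0 in all 3 DMF libraries.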

How the data were processed

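RNA-Seq of murine Tc17 cells gave 9 libraries, 3 for each of the groups Ctrl, DMF and DMF + GSH, assigned by the sample labels, which also give the replicate number and the preparation batch. The authors sequenced single reads of 50 bases, aligned them to GRCm38 with STAR 2.4.0b, counted reads per gene with featureCounts and divided the counts by a size factor for each library. The deposited values are such normalized counts, a signal per gene that is comparable between libraries. The table also holds the authors' own fold change and p-value columns for Ctrl and DMF, which were not used. Whether strand was used in counting was not stated.

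Every value above 0 was a whole multiple of the smallest step of its library (100% within 0.01), which recovered the reads and the depth of 7671772 to 14511926 reads per library. limma-trend (limma 3.58.1, R 4.3.3) was fitted with group and batch to log2(normalized count + 1) over 11599 of 41388 genes, those with a mean of at least 10, and Benjamini-Hochberg p adj were taken over all of them. A log2 fold change on this scale understates changes of low genes. The threshold was a p adj under 0.01 and an absolute log2FC of at least 0.75, as in the study's own analysis. edgeR's quasi-likelihood test, planned as the main test had the table held raw counts, was run as an alternative since it holds normalized values. edgeR 4.0.16 and DESeq2 1.42.0 on the recovered reads, the replicate block, another pseudocount, no minimum, TMM scaling and leaving out each library were alternatives. The scripts were tested on simulated data with 200 changed genes.

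The chains, gene lists and tests were chosen with earlier results of these data known. Named genes are all chains, the 3 genes most like each (1 of them is not reported here), called signalling genes with the 3 largest absolute log2FC of each list, and the gene of each marker list with the highest mean. Il17a, Lyz2, Csf1r, S100a8, S100a9, Klrg1, Cd4, Ncr1, Klrb1c, Jak2, Socs1, Stat3 and the genes in the text that are outside this rule were added after their values were seen. Deviations from the group means correlated between libraries of equal replicate number (r = 0.447 to 0.578 over 9 pairs), and these were taken as pairs. Over 18 pairs of different numbers r was −0.471 to −0.0621. Centring on groups of 3 pushes these values below 0, so they are no separate evidence of pairing. Replicate 1 is batch 1. Gene positions and exon lengths are from GENCODE vM21, in which 40340 gene identifiers and all 9 chains were found. Promoter windows are from RefSeq, which matched 8 chains. Il12rb1 was the chain not matched.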

Additional observations from a re-analysis of the deposited data

How the results depend on the processing

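Il1r1 passed the threshold in DMF against Ctrl in the 27 alternatives run, with a log2FC of −2.97 to −2.56. The count of chains that passed was 2 in this comparison, 3 with no minimum, with the replicate block, with DESeq2 and with edgeR and the block, 1 with only the 6 libraries compared, and 1 to 4 when a library was left out. For DMF + GSH against DMF it was 1, then 0 without the batch term, 3 with the replicate block, 2 with edgeR and the block, and 0 to 3 with a library left out. For DMF + GSH against Ctrl it was 0 throughout. Over all genes, DMF against Ctrl gave 335, and 789 with the replicate block, 795 with edgeR and the block, 554 with DESeq2, 43 with only the 6 libraries and 2 to 865 with a library left out, the lowest without Ctrl replicate 1. DMF + GSH against DMF gave 63, and 273 with no minimum, 28 without the batch term, 660 with the block, 655 with edgeR and the block, 384 with DESeq2, 5 with only the 6 libraries and 0 to 728 with a library left out. DMF + GSH against Ctrl gave 0, with 1 gene, Serpinb1a, in both fits with the block and 0 to 5 with a library left out. The signalling genes gave 0, with 1 with no minimum (Il18), 1 with DESeq2 (Irak2), 3 in both fits with the block and 0 to 4 with a library left out.

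Signs turned only in chains whose 95% intervals included 0. Il18r1 in DMF + GSH against DMF had 0.0037 with edgeR. With a library left out, the log2FC for DMF against Ctrl ran from −0.335 to 0.0295 in Il1rap and from −0.469 to 0.032 in Il18r1, and for DMF + GSH against DMF from −0.284 to 0.284 in Il18r1. For DMF + GSH against Ctrl it ran from −0.0403 to 0.324 in Il1rap, −0.471 to 0.0598 in Il18r1, −0.179 to 0.15 in Il18rap, −0.265 to 0.103 in Il12rb1 and −0.142 to 0.0595 in Il12rb2. With all 9 libraries in limma, the replicate block changed the call of no chain other than Il23r in both DMF comparisons and Il1rl1 in DMF + GSH against DMF. The set differed in several fits with a library left out. Without Ctrl replicate 1, Ctrl replicate 2 or DMF replicate 1, the block added Il1rl1 beside Il23r in DMF against Ctrl. Without DMF + GSH replicate 1 it added Il1r1 and Il1rl1 in DMF + GSH against DMF. Without DMF replicate 3 the block added calls of Il12rb1 in both DMF comparisons. It also added Il1rl1 and Il23r in DMF against Ctrl, and Il1r1 in DMF + GSH against DMF. The cause of these differences was not tested. Depth limits the low genes, among them Il1r2, Il1a and Il1rl1, whose values rest on few reads.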
